A study of Mus musculus with 40 samples.

Results

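The genes described here are 9 markers and regulators of the astrocyte lineage, Nfia, Fgfr3, Aldh1l1, Slc1a2, Aqp4, Gja1, Gfap, Apoe and Sparcl1, chosen by name and found in the data by NCBI gene ID. All 9 had a row at both stages, out of 17940 genes listed at E14.5 and 15449 at E18.5 (days of embryonic development). The data are polyadenylated RNA sequencing of the forebrain of male mouse embryos, with 5 wild-type (WT) and 5 KI libraries at each stage. KI is the label for mice in which the autism-related gene Chd8 is duplicated. The labels give no strain, insertion site, promoter of the added copy or litter, so p-values measure the spread between these libraries, which may be technical.

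The authors compared the genotypes at each stage, and their tables hold no value per library. Each gene has a mean normalized count over the 10 libraries of a stage, a log2 fold change with its standard error (SE), and a p-value from DESeq2's Wald test, adjusted over all genes by the Benjamini-Hochberg method. A gene is called changed when that adjusted p is under 0.05. The headers do not name the numerator, so the sign was read from Chd8, which stood at 0.64 on the log2 scale at E14.5 and 0.51 at E18.5, both from the authors' deposited table. Positive values are therefore read as higher in KI, and Chd8 is no independent check of the labels. Depth per library is unknown here.

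Astrocytes are made late in forebrain development, from the radial glia that have first made neurons. The switch needs Notch signalling and the transcription factors Sox9 and Nfia, and cytokines acting through gp130, JAK kinases and STAT3 turn on genes such as Gfap. Several adult astrocyte markers, among them Fgfr3, Slc1a2, Gja1 and Aldh1l1, are already present in radial glia, while Gfap and Aqp4 mark more mature cells. Some of the genes are also active elsewhere: Apoe in microglia and macrophages, Gja1 in meningeal fibroblasts, Nfia in neurons and Sparcl1 in vessels and neurons. In bulk tissue, fewer cells of a type and less RNA per cell cannot be told apart.

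Promoter windows from RefSeq (build GRCm38.p6) were read for 7 of the 9 genes, 10 windows in all, each the 250 bases before a start. Aqp4 was left out of this search, and Sparcl1 had no window. They are shown for the gene nearest to a call in KI (Apoe), the gene with the largest ratio between stages (Gfap) and the other gene with a match (Slc1a2). Apoe had 3 windows, and its window without a match is not printed. Capitals mark the short site TTGGC of nuclear factor I, the family of Nfia, read on both strands (GCCAA on the other).
Apoe, chr7:19699189-19699438, minus strand: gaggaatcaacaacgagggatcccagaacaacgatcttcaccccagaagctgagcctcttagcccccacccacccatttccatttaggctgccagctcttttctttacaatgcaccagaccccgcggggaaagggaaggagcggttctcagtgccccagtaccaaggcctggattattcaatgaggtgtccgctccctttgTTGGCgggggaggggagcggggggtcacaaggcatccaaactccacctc
Apoe, chr7:19698399-19698648, minus strand: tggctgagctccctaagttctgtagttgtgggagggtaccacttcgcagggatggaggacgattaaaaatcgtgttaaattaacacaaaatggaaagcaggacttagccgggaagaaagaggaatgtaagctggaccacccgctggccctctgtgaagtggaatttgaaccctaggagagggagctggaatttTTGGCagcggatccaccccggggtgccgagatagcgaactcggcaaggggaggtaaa
Slc1a2, chr2:102706188-102706437, plus strand: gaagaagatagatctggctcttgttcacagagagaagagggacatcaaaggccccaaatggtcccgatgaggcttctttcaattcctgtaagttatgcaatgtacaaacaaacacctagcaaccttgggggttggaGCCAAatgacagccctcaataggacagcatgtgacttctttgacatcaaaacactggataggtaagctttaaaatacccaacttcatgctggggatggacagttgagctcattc
Gfap, chr11:102897201-102897450, minus strand: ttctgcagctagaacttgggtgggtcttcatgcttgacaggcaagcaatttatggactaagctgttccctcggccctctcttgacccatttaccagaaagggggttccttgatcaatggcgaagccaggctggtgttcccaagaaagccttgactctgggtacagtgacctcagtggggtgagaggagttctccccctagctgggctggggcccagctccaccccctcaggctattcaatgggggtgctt
The short site stood at −49 to −45 and −57 to −53 from the starts in the Apoe windows and at −114 to −110 in the Slc1a2 window. These Apoe and Slc1a2 windows lie inside the spans of their genes given below, so each precedes an internal start. In all, 3 of the 10 windows held it, against 41.5% of the 32851 RefSeq windows of that length. The full site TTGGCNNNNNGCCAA (0.0365% of all windows), which contains the short site on each strand, and the STAT site TTCNNNGAA (7.02%) had 0 matches in the 10 windows. A match describes letters in a window; binding at these windows was not analysed here.

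The level of the 9 genes differed widely between the stages. The tables of the stages were normalized separately and pool both genotypes, so the ratios below carry no error and no test. They are scaled so that the median of the 13106 genes tested at both stages stands at 0 on the log2 scale. Gfap, the intermediate filament of mature astrocytes, had a mean normalized count of 5.83 at E14.5 and 459 at E18.5, both from the authors' deposited table. That is a 73.8-fold ratio, rank 2 of the 15415 genes listed at both stages. Aqp4, the water channel of astrocyte endfeet, had 26 and 308 in the authors' deposited table, an 11.1-fold ratio.

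The secreted products came next. Sparcl1, the matricellular protein also called hevin, had mean normalized counts of 1048 and 5382 in the authors' deposited table (4.82-fold). Apoe, the main lipid carrier that astrocytes secrete, had 616 and 3161 in the authors' deposited table (4.81-fold). Aldh1l1, a folate enzyme used as a pan-astrocyte marker, had 333 and 827 in the authors' deposited table (2.33-fold).

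The glutamate transporter gene Slc1a2, at 2549 and 3703 in the authors' deposited table, and the connexin 43 gene Gja1, at 569 and 768, were closer to the median gene (log2 ratios 0.45 and 0.34). Gja1 and Apoe had a wide SE at E18.5, given below, so their means and ratios at that stage are less certain. The regulators of the early lineage were lower at the later stage. Nfia had 4403 and 2094 in the authors' deposited table, 2.24-fold lower at E18.5. Fgfr3 had 2661 and 923 in the authors' deposited table, 3.08-fold lower at E18.5. The 9 genes thus spanned log2 ratios from −1.62 for Fgfr3 to 6.21 for Gfap, with 7 above 0 and 2 below. Of all genes listed at both stages, 8323 were above 0 and 7092 below.

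**Figure D1:**
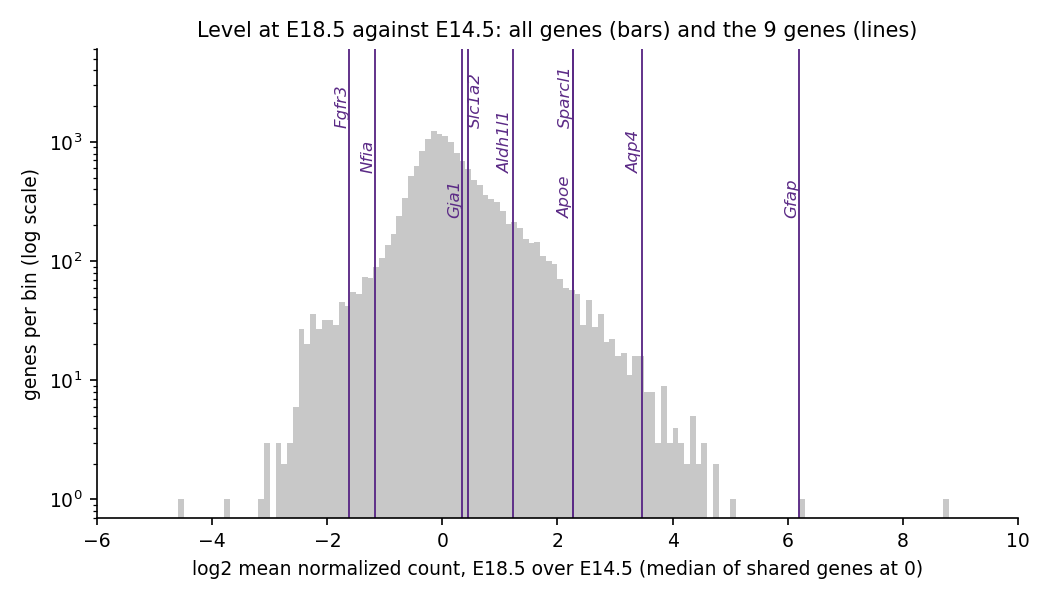
Histogram of the log2 ratio of mean normalized counts, E18.5 over E14.5, for all genes listed at both stages (number of genes per bin on a log scale), with a line for each of the 9 genes. Fgfr3 and Nfia stand at −1.62 and −1.17, Gja1 and Slc1a2 near the peak, and Gfap at 6.21.

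Of 32 further astrocyte markers, 31 were listed at both stages, 25 of them higher and 6 lower at E18.5 (median log2 ratio 0.69, against 0.05 over all genes). The glutamate transporter gene Slc1a3 had a log2 ratio of 0.82 and the aldolase gene Aldoc −0.51. Chosen after their values were seen, Hepacam, which encodes an adhesion protein of astrocytes, had 3.34 and the deiodinase gene Dio2 3.03. Among 19 radial glia markers 6 were higher and 13 lower (median −0.92), with the progenitor factors Pax6 and Sox2 at −1.85 and −1.19.

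No astrocyte lineage gene was called changed in KI at E14.5. Of the 8 with an adjusted p 0 passed DESeq2's test, where 1.21% of the 13417 genes tested did (0.738% higher and 0.47% lower in KI). Without adjustment 3 of the 8 had a deposited p under 0.05, all higher in KI (Apoe, Fgfr3 and Gja1), against 11.5% of all genes. The 8 had a median log2 fold change of 0.04, with 5 above 0 and 3 below, beside a median of 0.00 over all genes tested.

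Of the secreted products, Apoe stood nearest to a call. It was 17.7% above WT in the authors' deposited table, a log2 fold change of 0.24 (SE 0.071), with an unadjusted p of 0.000969 and an adjusted p of 0.0644. The 95% interval from that SE ran from 0.10 to 0.38. Its Wald statistic, the change over its SE, was 3.30, and the smallest absolute value among called genes was 3.43. Sparcl1 stood at −0.07 in the authors' deposited table, with SE 0.058 and adjusted p = 0.728.

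Among the regulators, Fgfr3, the FGF receptor of ventricular zone progenitors and astrocytes, was 9.87% above WT in the authors' deposited table, a log2 fold change of 0.14 (SE 0.049). Its unadjusted p was 0.00608 and its adjusted p 0.169, with an interval of 0.04 to 0.23. Nfia, the transcription factor that opens the astrocyte programme, stood at 0.03 in the authors' deposited table, with SE 0.057 and an interval of −0.08 to 0.14. At these SE a change of 0.17 in Fgfr3 or 0.20 in Nfia would have been called.

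The membrane and metabolic genes came without a call as well. Gja1, which forms gap junctions between radial glia and between astrocytes, stood at 0.15 in the authors' deposited table, with SE 0.070, unadjusted p = 0.0324 and adjusted p = 0.364. Slc1a2, which clears glutamate from synapses, stood at 0.05 in the authors' deposited table (SE 0.049), and Aldh1l1 at −0.04 (SE 0.10). For the mature markers the levels were too low for a precise value. Aqp4 stood at −0.06 with an SE of 0.345 in the authors' deposited table, so that a change of 1.18 would have been needed for a call. Gfap stood at −0.36 (SE 0.596) without an adjusted p in the authors' deposited table, and a difference between genotypes was not detectable at its level.

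**Figure D2:**
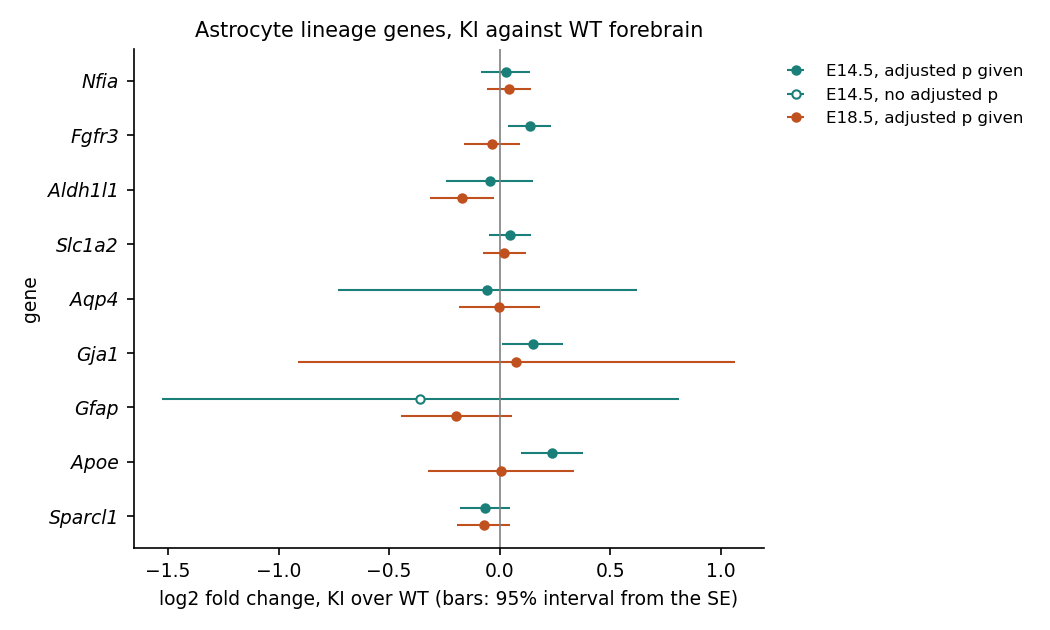
Log2 fold change of KI over WT (x axis) for each of the 9 genes, with 95% intervals from the authors' SE, at E14.5 (green) and E18.5 (orange). The open circle is Gfap at E14.5, which has no adjusted p; Apoe, Fgfr3 and Gja1 lie above 0 at E14.5, Aldh1l1 lies below 0 at E18.5, and Gja1 has the widest interval at E18.5.

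At E18.5 again 0 of the 9 genes passed DESeq2's test, where 0.0662% of the 13601 genes tested did (0.0441% higher and 0.0221% lower in KI). Without adjustment 1 of the 9 had a deposited p under 0.05, against 5.96% of all genes. That was Aldh1l1, with a log2 fold change of −0.17 in the authors' deposited table (SE 0.074, unadjusted p = 0.0214, adjusted p = 0.770) and an interval of −0.32 to −0.03. The 9 had a median of 0.00, with 4 above 0 and 5 below, beside 0.00 over all genes tested.

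Gfap, now measured at a mean normalized count of 459, stood at −0.20 in the authors' deposited table, with SE 0.128 and unadjusted p = 0.124. Its interval of −0.45 to 0.05 included 0. Aqp4 stood at 0.00 in the authors' deposited table with an interval of −0.18 to 0.18, and Slc1a2 at 0.02 with one of −0.07 to 0.12. The regulators Nfia and Fgfr3 stood at 0.04 and −0.03 in the authors' deposited table (SE 0.051 and 0.064). Sparcl1, with the same sign as at E14.5, stood at −0.07 in the authors' deposited table (SE 0.061). The smallest absolute Wald statistic among called genes was 4.21 here. Changes of 0.20 in Slc1a2, 0.22 in Nfia, 0.27 in Fgfr3, 0.31 in Aldh1l1 and 0.54 in Gfap would have been called.

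Gja1 and Apoe were measured less precisely at E18.5 than other genes of their level. Gja1 stood at 0.08 with an SE of 0.505 in the authors' deposited table, an interval of −0.91 to 1.07. The 500 genes nearest to Gja1 in mean normalized count had a median SE of 0.065, so that its SE was 7.83 times as large. Apoe stood at 0.01 with an SE of 0.169 in the authors' deposited table, 3.91 times the 0.043 of genes of like mean, an interval of −0.33 to 0.34. At E14.5 these ratios were 1.03 for Gja1 and 1.07 for Apoe.

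A ratio over 2 was reached by 2.27% of the 13780 genes with a mean of at least 30 at E18.5 and by 1.02% of 13181 at E14.5. Of the 9 genes it was Gja1 and Apoe at E18.5, and 0 of the 7 high enough to compare at E14.5. The other 7 ran from 1.01 (Aqp4) to 1.61 (Gfap) at E18.5. This measure was chosen after the values were seen.

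The meningeal markers also had a wide SE at E18.5. All 10 with a mean of at least 30 had a ratio over 2 (median 12.5, range 2.65 to 23.2), and 0 of 5 at E14.5 (range 0.996 to 1.04). Of the 11 listed at E18.5, 9 carried no p-value, where 85 of all 15449 genes had none. DESeq2 can leave out the p-value of a gene in which 1 library lies far from the rest, and the tables used here show no library. The collagen genes Col1a1 and Col1a2 had SE of 1.436 and 1.148 in the authors' deposited table for E18.5, with means of 252 and 407.

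Summed mean normalized counts of the meningeal list were 1077 at E14.5 and 3953 at E18.5. Choroid plexus markers had a ratio over 2 in 6 of 8 at E18.5 and 0 of 2 at E14.5, with the transthyretin gene Ttr at 42.2 and the folate receptor gene Folr1 at 5.22. The part of meningeal or choroid plexus tissue in the values of Gja1 and Apoe was not tested.

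Markers of the other cell types that carry Apoe or Sparcl1 had fewer wide SE at E18.5 than the meningeal list. The share over all genes was 2.27%. Microglial markers had a ratio over 2 in 2 of 13 (C1qa at 2.26 and Mrc1, a marker of border macrophages, at 7.68). Csf1r, the receptor that microglia need to survive, was at 1.55. Endothelial and mural markers had 1 of 14 (Cdh5 at 2.92), radial glia markers 0 of 19 and neuronal markers 0 of 12. Oligodendrocyte lineage markers had 1 of 12. Erythroid markers had 2 of 3 at E18.5 and, unlike the meningeal list, 2 of 5 at E14.5 too. Further astrocyte markers had 2 of 30, among them the metallothionein gene Mt3 at 2.60. The family of Sparcl1 had 3 of 11, among them the matrix genes Sparc and Fstl1 at 3.57 and 4.22, and Sparcl1 itself was at 1.47. The list of lipid genes around Apoe, which includes Apoe, had 3 of 13.

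**Figure D3:**
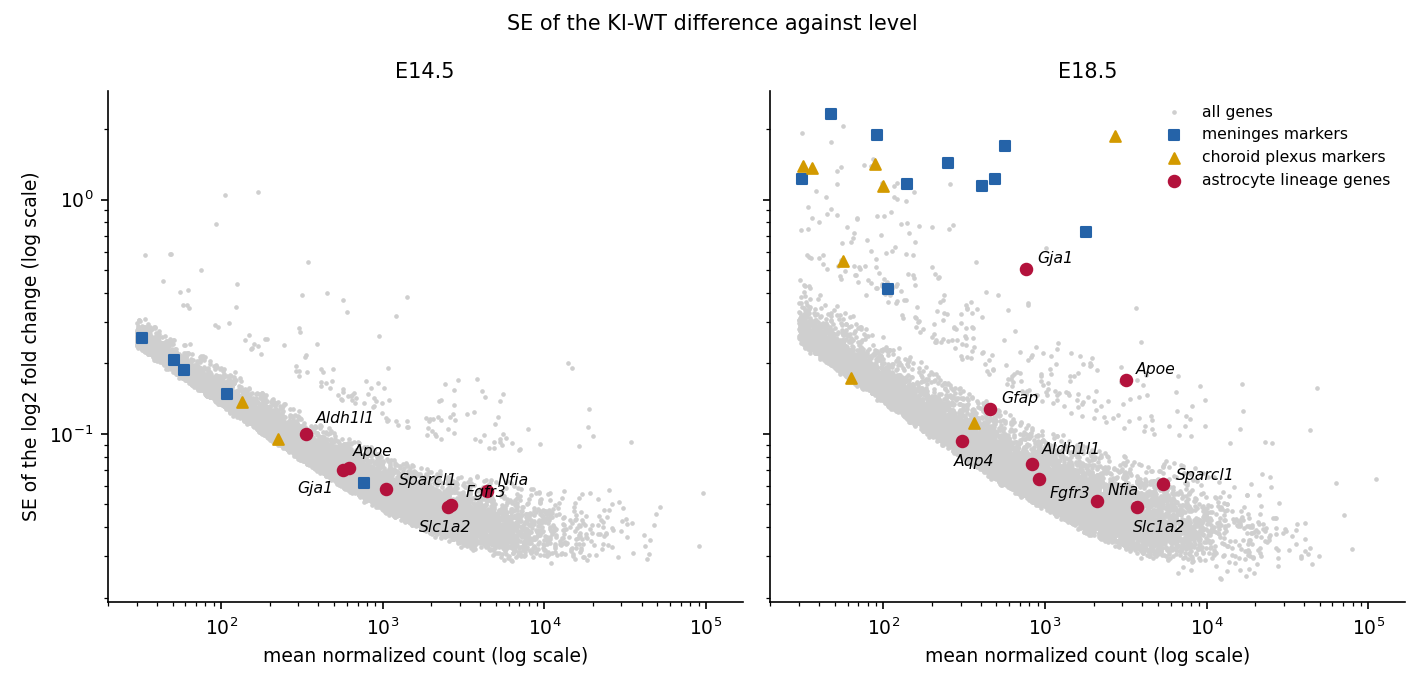
SE of the log2 fold change against mean normalized count, both on log scales, at E14.5 (left) and E18.5 (right), for all genes with a mean of at least 30 (grey), meningeal markers (blue squares), choroid plexus markers (yellow triangles) and the astrocyte lineage genes (red). At E18.5 Gja1 (SE 0.505) and Apoe (0.169) leave the band of genes of like mean, as do the 10 meningeal markers shown; at E14.5 they lie within it.

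Whether the KI change differed between the stages was tested on the difference of the log2 fold changes over its SE, since the stages share no library. Of the 8 genes with an adjusted p at both stages 0 passed (z test, Benjamini-Hochberg adjustment), as did 0% of all 13106 genes. Unadjusted, 1 of the 8 had a p under 0.05, against 4.52% of all genes. That was Fgfr3, whose change at E18.5 less its earlier change was −0.17 (SE 0.081, unadjusted p = 0.0354, adjusted p = 0.999). The difference for Apoe was −0.23 with an interval of −0.59 to 0.13. That for Gja1 was −0.07 with an SE of 0.510. Nfia, Slc1a2 and Sparcl1 had intervals from −0.14 to 0.16, −0.16 to 0.11 and −0.17 to 0.16.

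The transcription factors around Nfia form a list of 18. At E14.5 11 were above 0 and 7 below, at E18.5 6 above and 12 below, with 0 called at either stage. Nfib, the relative of Nfia that also drives gliogenesis, stood at −0.09 and 0.05 in the authors' deposited table (SE 0.038 and 0.040). Chosen after its value was seen, Nfix of the same family stood at −0.17 at E14.5 in the authors' deposited table, with SE 0.052 and adjusted p = 0.0568. Sox9, which acts upstream of Nfia, stood at 0.10 and −0.03 in the authors' deposited table (SE 0.046 and 0.059).

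Signals that induce astrocyte genes had 3 of 13 tested members above 0 at E14.5 and 4 of 15 at E18.5, with 0 called. Lifr, the receptor of leukemia inhibitory factor, stood at −0.14 and 0.05 in the authors' deposited table, and its partner gp130, the Il6st gene, at 0.00 and −0.02 (SE from 0.056 to 0.087). In the FGF list around Fgfr3, 7 of 17 were above 0 at E14.5 and 8 of 18 at E18.5, with 0 called. The other receptor genes Fgfr1 and Fgfr2 stood at −0.04 and 0.11 at E14.5 in the authors' deposited table (SE 0.044 and 0.049). At E18.5 they stood at −0.03 and 0.00 in the authors' deposited table (SE 0.053 and 0.066).

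Among the partners of the structural, transport and secreted genes, 3 rose at E14.5. Mlc1, whose membrane protein sits at astrocyte endfeet as Aqp4 does, rose by 0.34 in the authors' deposited table (SE 0.063, adjusted p = 4.79e-05), with 611 as its mean normalized count. Plec, the plectin gene whose product anchors intermediate filaments, rose by 0.26 in the authors' deposited table (SE 0.068, adjusted p = 0.0148). Smoc1, a secreted relative of Sparcl1, rose by 0.27 in the authors' deposited table (SE 0.075, adjusted p = 0.0269). At E18.5 Mlc1 stood at 0.06, Plec at 0.05 and Smoc1 at 0.11 in the authors' deposited table, none of them called. The differences between stages were −0.28 for Mlc1 (unadjusted p = 0.00262, adjusted p = 0.905), −0.22 for Plec and −0.16 for Smoc1, and 0 of the 3 passed. They were the called genes out of 135 tested in 12 lists of related genes (2.22%, against 1.21% of all genes), and at E18.5 0 of 142 were called. Plec and Smoc1 lost the call with a stricter adjustment (adjusted p = 0.149 and 0.271 by Benjamini-Yekutieli).

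The endfoot list had 5 of 10 above 0 at E14.5 and 4 of 10 at E18.5. Aqp1, a water channel gene of the choroid plexus in that list, had an SE of 1.419 in the authors' deposited table for E18.5. The glutamate list around Slc1a2 had 8 of 13 above 0 and then 6 of 13, with 0 called. The neuronal glutamate transporter gene Slc1a1 stood at −0.10 and −0.02 in the authors' deposited table (SE 0.069 and 0.051). The gap junction list around Gja1 had 4 of 7 above 0 and then 5 of 7, with 0 called.

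The filament list around Gfap had 4 of 9 above 0 and then 5 of 10. Vim, the vimentin gene of radial glia and astrocytes, stood at −0.01 and −0.05 in the authors' deposited table (SE 0.050 and 0.062). Lipid genes around Apoe had 6 of 12 above 0 and then 4 of 12, with 0 called. The family of Sparcl1 had 4 of 9 above 0 and then 8 of 11. Folate and aldehyde dehydrogenase genes around Aldh1l1 had 9 of 15 above 0 and then 5 of 15, with 0 called. Aldh1l2, the mitochondrial relative of Aldh1l1, stood at −0.10 and −0.09 in the authors' deposited table (SE 0.054 and 0.057).

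Further astrocyte markers had 14 of 28 above 0 at E14.5 (median 0.00). Of the 28, Mlc1 was the 1 called, where 1.21% of all genes tested were. At E18.5 24 of 30 lay below 0 (median −0.05), beside 51.2% of all genes, with 0 called. Slc1a3, the early glutamate transporter gene, stood at −0.10 and Aldoc at −0.10 in the authors' deposited table for E18.5 (SE 0.054 and 0.055). Radial glia markers, some of which are in that list too, had 11 of 18 above 0 at E14.5 and 15 of 19 below 0 at E18.5 (medians 0.02 and −0.07). Ttyh1, a membrane protein gene of radial glia, rose by 0.13 at E14.5 in the authors' deposited table (adjusted p = 0.0491), a call lost without the filter on low values (0.0652). Ttyh1 was the 1 called of the 18 radial glia markers tested at E14.5.

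**Figure D4:**
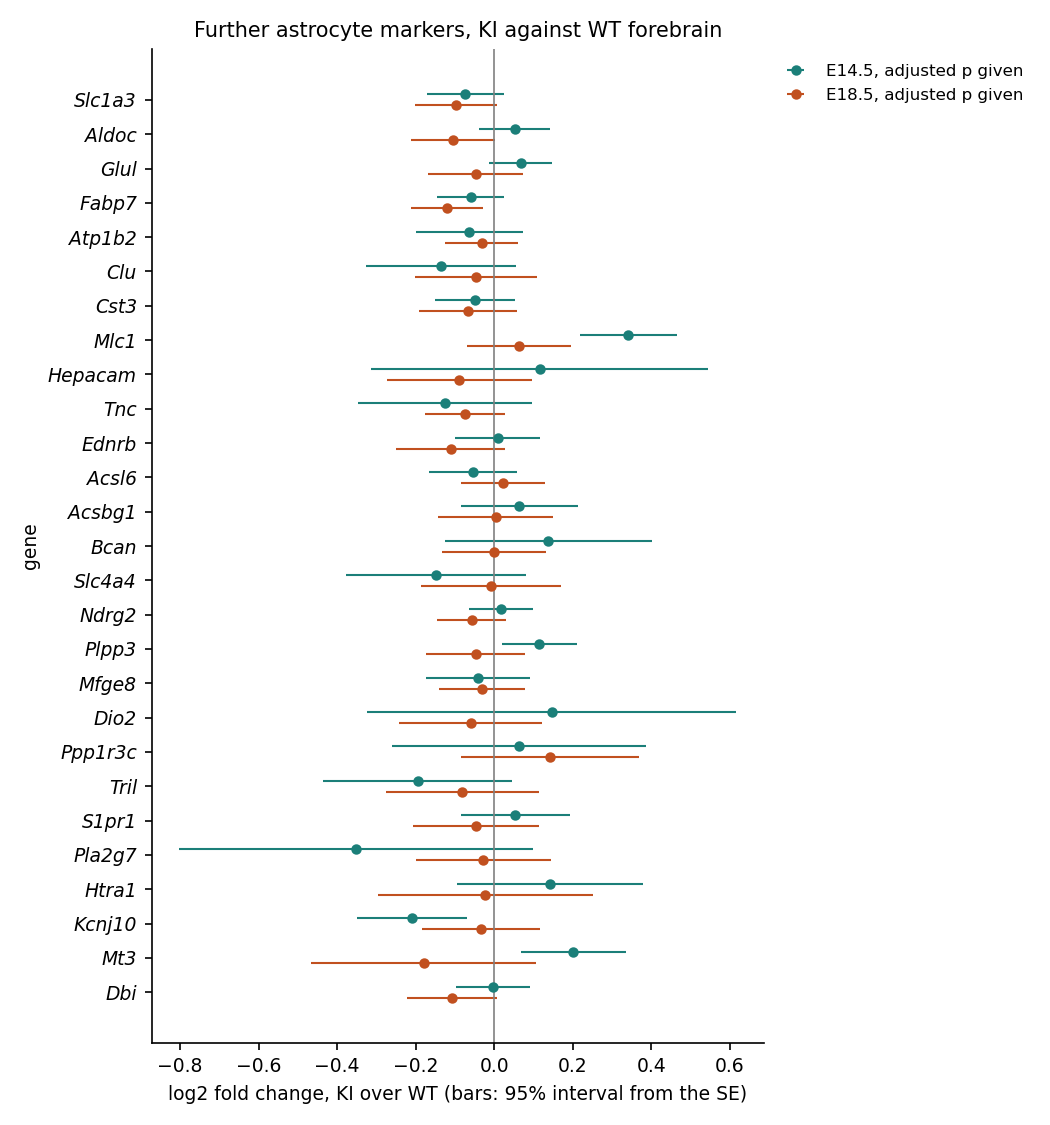
Log2 fold change of KI over WT (x axis) with 95% intervals from the authors' SE for further astrocyte markers with an adjusted p at both stages, at E14.5 (green) and E18.5 (orange). Mlc1 is the gene called at E14.5, and Mt3 has a wide interval for its level at E18.5.

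Markers of other cells were read beside the 9 genes. Microglial markers, which share cells with Apoe, had 9 of 13 above 0 at E14.5 (median 0.04) and 10 of 12 at E18.5 (median 0.15), with 0 called and summed mean normalized counts of 1339 and 1987. Meningeal markers, which share cells with Gja1, had 5 of 6 above 0 at E14.5 (median 0.34, from −0.05 to 0.61) with 0 called. Their part in the values of Gja1 and Apoe was not tested. Endothelial and mural markers had 3 of 14 above 0 at E14.5 and 8 of 14 at E18.5, with 0 called.

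Oligodendrocyte lineage markers, of the other glial lineage of the forebrain, had 4 of 11 above 0 and then 2 of 12, with 0 called. Their defining factors Olig1 and Olig2 stood at 0.04 and 0.23 at E14.5 in the authors' deposited table (SE 0.110 and 0.078, adjusted p = 0.937 and 0.126). Both were below 0 at the later stage, at −0.22 and −0.19 in the authors' deposited table for E18.5 (SE 0.060 and 0.072, adjusted p = 0.141 and 0.598). The stage difference for Olig2 was −0.42 (SE 0.106, unadjusted p = 7.37e-05, adjusted p = 0.350 by Benjamini-Hochberg) and did not pass. Neuronal markers had 2 of 12 above 0 and then 11 of 12. Neurod6, a factor of cortical excitatory neurons, had a log2 fold change of −0.20 at E14.5 in the authors' deposited table and was called (adjusted p = 0.00438). It was the 1 called of the 12, where 1.21% of all genes tested were. All 5 erythroid markers tested at E14.5 were above 0 (median 0.50), and 2 of them were called. These were the embryonic globin genes Hbb-y and Hba-x, which rose by 0.50 and 0.59 in the authors' deposited table (adjusted p = 1.64e-09 and 0.0118).

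Of the 9 genes, 5 have a span that overlaps another RefSeq gene. Of those overlapping genes 1 is in the tables, the long noncoding gene E130114P18Rik, whose span overlaps that of Nfia. E130114P18Rik had a mean normalized count of 639 at E14.5 and 182 at E18.5, both from the authors' deposited table. The sources used here do not say whether counting used strand, so reads of the pair may be mixed. In GRCm38.p6 the genes lie on chromosome 4 at 97578066 to 98118876 (Nfia, NCBI gene ID 18027) and on chromosome 5 at 33721724 to 33737068 (Fgfr3, 14184) and 104079108 to 104114088 (Sparcl1, 13602). Aldh1l1 (107747) lies on chromosome 6 at 90550768 to 90599171, Slc1a2 (20511) on chromosome 2 at 102658239 to 102790784 and Gja1 (14609) on chromosome 10 at 56377300 to 56390419. Gfap (14580) lies on chromosome 11 at 102887336 to 102897200 and Apoe (11816) on chromosome 7 at 19696244 to 19701310.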

How the data were processed

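Forebrain RNA of male mouse embryos was sequenced, with 5 libraries per genotype and stage, per the labels. The authors' tools, per the submitters' processing notes, include HISAT2 2.1.0, Trimmomatic 0.39, DESeq2 1.26.0 and featureCounts 2.0.0; the build is mm10. Per the file headers, the authors deposited 1 row per gene with the mean normalized count, the log2 fold change and its SE, the Wald statistic (a score), and the p-value before and after adjustment. There were 0 columns of per-sample values, so nothing was refitted, and depth per library is unknown. Symbols came from RefSeq's table for GRCm38.p6, which matched 17192 of 17940 gene IDs at E14.5 and 15064 of 15449 at E18.5.

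Computed here (Python 3.11.15, pandas 2.3.3, scipy 1.17.1) were 95% intervals, the difference between stages, the ratio of levels, the SE relative to the 500 genes nearest in mean, and counts over 20 lists of related genes and cell type markers. The scripts were tested on simulated data. The genes and lists were chosen with earlier results of these data known, so no list was tested. Named by rule are the 9 genes, the first 2 of each list and up to 4 called members; any other gene named was chosen after its values were seen. Some list members are counted but not reported here by name. Chromatin libraries were not analysed here.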

Additional observations from a re-analysis of the deposited data

How the results depend on the processing

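Of the 9 genes 0 were called at either stage or for the difference between stages under every alternative run. At each stage these were no filter on low values, a mean normalized count of at least 100, the Benjamini-Yekutieli adjustment, an empirical null (statistics centred on their median and scaled by their median absolute deviation) and centring on the median gene; for the difference, the count filter, Benjamini-Yekutieli and the empirical null. The adjusted p of Apoe at E14.5 ran from 0.0584 to 0.649 over them. Aqp4 at E18.5 changed sign with the empirical null (0.00116) and with centring (0.000651), within its SE of 0.094. Over all genes the calls at E14.5 were 162, but 56 with Benjamini-Yekutieli and 31 with the empirical null. At E18.5 they were 9, but 14 with the count filter, 4 with Benjamini-Yekutieli and 19 with the empirical null. Of the 3 related genes called at E14.5, 1 was called with Benjamini-Yekutieli and 1 with the empirical null, Mlc1 in each case. With the empirical null the adjusted p was 0.194 for Plec, 0.277 for Smoc1, 0.388 for Ttyh1, 0.104 for Neurod6 and 0.178 for Hba-x, and Ttyh1 (0.495) and Hba-x (0.119) were lost with Benjamini-Yekutieli too. Levels of 7 of the 9 genes were higher at E18.5 under each of 3 scalings. The 7 include Gja1 and Apoe, and rescaling does not address their wide SE at E18.5. Gja1 and Apoe were the genes of wide SE also with 200 or 1000 genes of like mean, settings chosen after seeing the data. No paired analysis was possible because the tables carry no value per library, and for that reason no replicate could be left out. The SE of each gene limits what could be called, most of all for Gfap and Aqp4 at E14.5 and Gja1 and Apoe at E18.5.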
